A study of Mus musculus with 30 samples.

Results

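The SWI/SNF core and ATPase subunits were followed in mouse thyroid RNA-seq as 9 genes, taken by name from a table of read counts for 33924 genes: Smarcb1, Smarca4, Smarca2, Smarcc1, Smarcc2, Smarcd1, Smarcd2, Smarcd3 and Smarce1. All 9 passed the filter on low counts, as did 19016 genes in all. Mice carried Braf(V600E), an activating mutation of a MAPK pathway kinase, with Smarcb1 KO (knockout), with Arid2 KO, with Arid1a KO or alone. Each of these 4 genotypes received either CKI, which the labels use for the MEK inhibitor CH5126766, or vehicle over 8 days, with tissue taken roughly 2 h after dosing ended. Untreated Arid1a KO thyroids and untreated wild-type thyroids carried no Braf mutation. By its title and design the series concerns what losing a SWI/SNF subunit does to Braf-mutant thyroid tumours and to their answer to MEK inhibition. There were 3 libraries in all groups but the Braf Arid2 KO ones, where CKI and vehicle had 2 each, so that 28 libraries in 10 groups were analysed. The labels give neither the age of the mice nor the promoter that drove recombination, and do not tie libraries to animals, so a p-value here speaks of the spread among libraries, which may be technical.

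SWI/SNF complexes use the energy of ATP to move or evict nucleosomes and so to open DNA at promoters and enhancers. Smarca4 (BRG1) and Smarca2 (BRM) are the alternative ATPase motors, and a complex carries one of them. Smarcb1 (SNF5, also called INI1) touches the nucleosome and is a tumour suppressor lost in rhabdoid tumours. Smarcc1 (BAF155) and Smarcc2 (BAF170) form the scaffold on which a complex is assembled, Smarcd1, Smarcd2 and Smarcd3 (BAF60A, BAF60B and BAF60C) are alternative accessory subunits that bind transcription factors, and Smarce1 (BAF57) carries an HMG domain. Arid1a and Arid2 mark different classes of the complex, cBAF and PBAF.

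The promoters of 4 members are printed because Smarcc1 and Smarcd3 moved together across the libraries and Smarcb1 and Smarca4 were the members that fell in Arid1a KO thyroids. Each is the stretch of 250 bases before the RefSeq gene start, 5′ to 3′ on the gene's strand. They lie at chr10:75921615-75921864 (minus strand), chr9:21615919-21616168 (plus strand), chr9:110131774-110132023 (plus strand) and chr5:24602003-24602252 (minus strand) of GRCm38.p6, another build than the mm9 of the counts. Capitals mark every match, on either strand, to 6 motifs.
Smarcb1: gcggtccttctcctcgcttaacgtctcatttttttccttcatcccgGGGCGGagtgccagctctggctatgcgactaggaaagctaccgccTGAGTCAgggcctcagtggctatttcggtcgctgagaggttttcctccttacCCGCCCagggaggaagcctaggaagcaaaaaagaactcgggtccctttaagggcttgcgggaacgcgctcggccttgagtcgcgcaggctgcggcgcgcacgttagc
Smarca4: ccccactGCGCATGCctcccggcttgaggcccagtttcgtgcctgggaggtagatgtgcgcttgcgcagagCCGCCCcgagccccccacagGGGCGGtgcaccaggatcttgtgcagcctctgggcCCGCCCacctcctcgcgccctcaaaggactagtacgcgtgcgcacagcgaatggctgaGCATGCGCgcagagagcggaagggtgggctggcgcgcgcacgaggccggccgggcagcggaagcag
Smarcc1: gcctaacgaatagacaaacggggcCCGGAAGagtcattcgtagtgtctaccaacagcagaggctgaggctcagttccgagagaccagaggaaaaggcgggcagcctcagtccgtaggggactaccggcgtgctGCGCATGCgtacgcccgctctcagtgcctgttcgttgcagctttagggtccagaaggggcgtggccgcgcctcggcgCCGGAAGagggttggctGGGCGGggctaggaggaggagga
Smarcd3: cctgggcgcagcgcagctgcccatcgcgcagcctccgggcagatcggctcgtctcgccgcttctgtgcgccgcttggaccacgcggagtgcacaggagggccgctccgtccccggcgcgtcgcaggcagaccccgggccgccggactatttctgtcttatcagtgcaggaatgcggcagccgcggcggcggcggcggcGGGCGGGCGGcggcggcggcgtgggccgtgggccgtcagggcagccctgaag
The motifs were the NRF1 core GCATGCGC, the GC box GGGCGG, the CCAAT box CCAAT, the TATA box TATAAA, the ETS site CCGGAAG and the AP-1 site TGANTCA, and none of the matches printed overlaps a match to another motif, while the 2 GC boxes of Smarcd3 overlap each other. The NRF1 core stood in the windows of Smarca4 and Smarcc1, which is 2 of the 8 members matched and 2.26% of 32851 mouse promoters of the same length. The GC box stood in 7 of 8 members and 32.7% of all promoters. The ETS site stood in 2 of 8 (Smarca2 and Smarcc1) and 6.91% of all, the AP-1 site in 1 of 8 (Smarcb1) and 6.75%, the TATA box in 1 of 8 (Smarcd2) and 12.4%, and the CCAAT box in 0 of 8 and 33.8%. Smarce1 was not matched. These are matches of letters only.

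Total counts ran from 23879271 to 34400066 per library, and levels are given as CPM (read counts scaled to a common library size with TMM factors). All 10 thyrocyte markers were detected in every group, although their sum ran from 163.6 CPM in a Braf Smarcb1 KO vehicle library to 163400 CPM in a wild-type library. The labels describe frozen whole thyroids for some genotypes and sorted YFP+ cells from dissociated glands, with both texts on every sample, so preparation and genotype cannot be told apart. The table counts whole genes, exons that stay in a knockout included, and so the levels of Arid1a and Arid2 are no check of the genotype labels: Arid1a stood at 11.98 to 29.3 CPM in Braf Arid1a KO and 11.6 to 36.9 CPM in Braf libraries, and Arid2 at 15.5 to 37.5 CPM in Braf Arid2 KO and 7.03 to 29.8 CPM in Braf libraries. Untreated Arid1a KO libraries 1 and 3 stood apart from the rest in how counts depended on the GC content of a gene, as described with their comparison.

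Per kilobase of transcript, Smarcb1 had the highest level of the 9, with a median over the 28 libraries of 65.7 CPM per kb. The ATPase Smarca4 followed with 19.8 CPM per kb, then Smarce1 with 18.1, Smarcc2 with 15.8 and the ATPase Smarca2 with 12.95 CPM per kb. Smarcc1 had 5.36 CPM per kb, and the accessory subunits Smarcd2, Smarcd1 and Smarcd3 had 3.004, 1.29 and 0.443 CPM per kb. The members differed as much in how far they moved. The highest library exceeded the lowest by 109-fold for Smarcb1, the targeted gene of 2 groups, and by 102.5-fold for Smarcd3, which is targeted in none. The fold for Smarcd3 is imprecise, as its lowest library, wild type 3, held 3 counts. The highest library exceeded the lowest by 11.98-fold for Smarcc1, 9.19-fold for Smarcd1, 6.95-fold for Smarca4, 5.13-fold for Smarcd2, 4.64-fold for Smarcc2, 3.10-fold for Smarce1 and 2.09-fold for Smarca2.

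**Figure D1:**
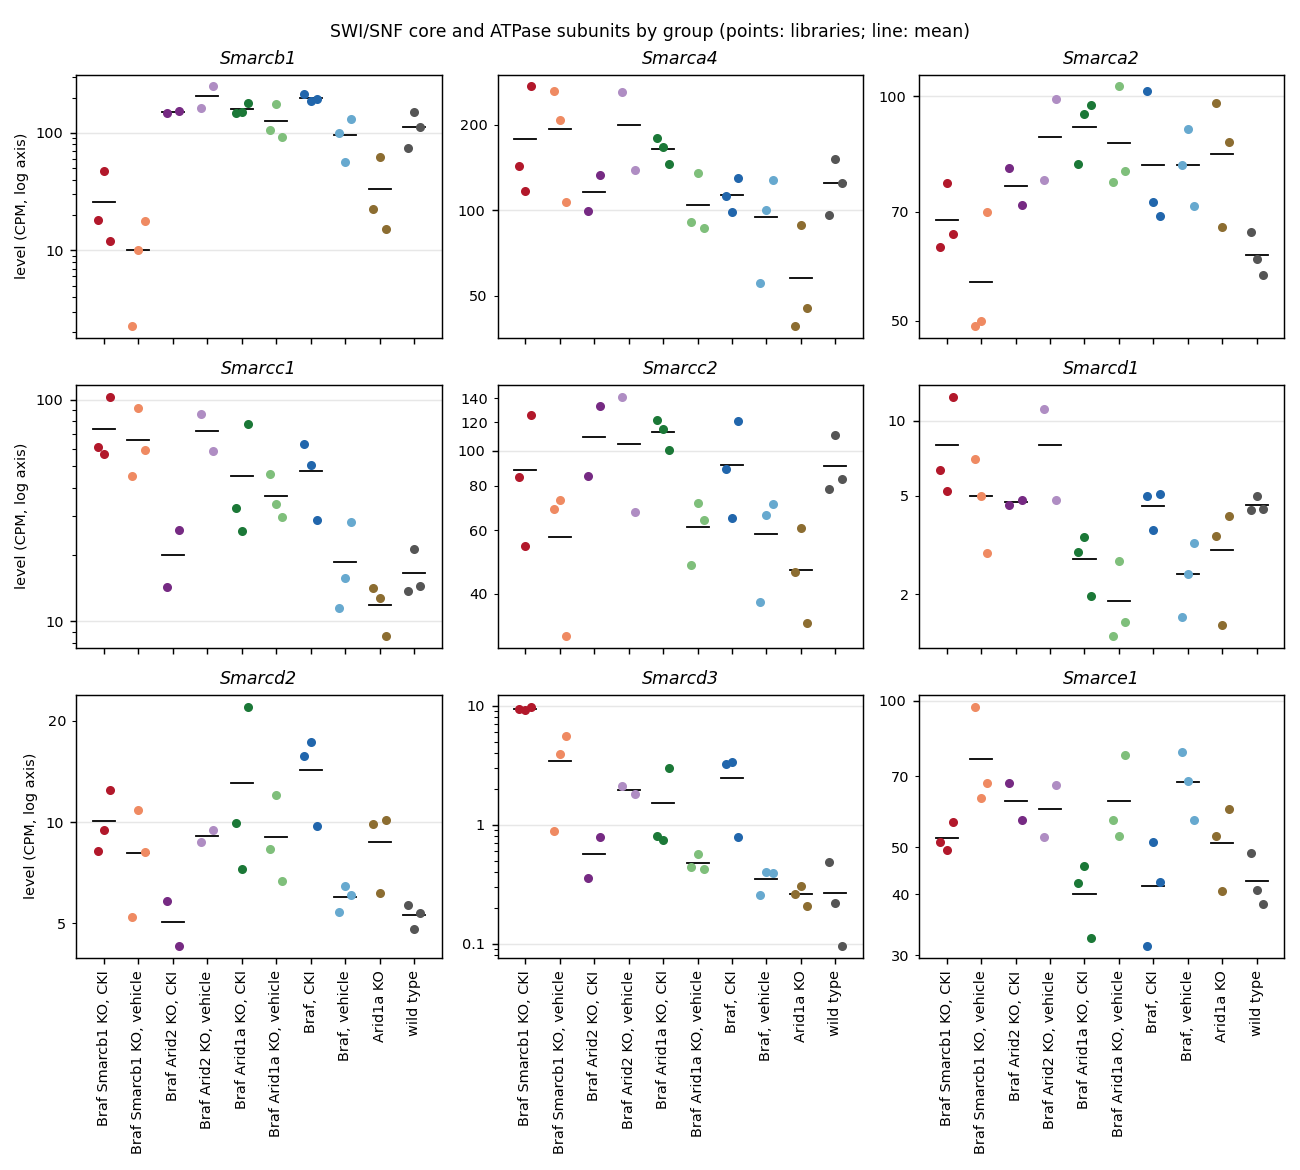
Level of each subunit in CPM (log axis) in every library, with 10 groups along the x axis, points for libraries and a line for the group mean. Smarcd3 spans 0.0960 (on 3 counts) to 9.84 CPM, with all 3 libraries of Braf Smarcb1 KO with CKI above every other library, while Smarca2 stays between 49.3 and 103.1 CPM.

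Smarcb1 had its highest group mean in Braf Arid2 KO under vehicle (206 ± 60.4 CPM, SD, n = 2), then in Braf with CKI (199 ± 15.4 CPM, n = 3), Braf Arid1a KO with CKI (159 ± 17.1 CPM, n = 3) and Braf Arid2 KO with CKI (152 ± 4.64 CPM, n = 2). Braf Arid1a KO under vehicle had 126 ± 45.4 CPM, wild type 113 ± 38.4 CPM and Braf under vehicle 96.2 ± 37.2 CPM (n = 3 each). The lowest means were 33.3 ± 25.5 CPM in untreated Arid1a KO, 25.8 ± 18.98 CPM in Braf Smarcb1 KO with CKI and 10.07 ± 7.81 CPM in Braf Smarcb1 KO under vehicle (n = 3 each). Neighbours in this order overlapped in their libraries, except Braf with CKI and Braf Arid1a KO with CKI. The libraries labelled Arid1a KO, at 15.1 to 62.5 CPM, therefore overlapped the range of 11.9 to 47.4 CPM of the libraries in which Smarcb1 itself was the target and CKI was given. Only Arid1a KO libraries 1 and 3, at 22.3 and 15.1 CPM, lay within that range, and library 2, at 62.5 CPM, lay above it. Libraries 1 and 3 are those that stood apart in GC dependence.

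Smarca4 ran from 199.7 ± 86.7 CPM in Braf Arid2 KO under vehicle (n = 2), 192 ± 78.9 CPM in Braf Smarcb1 KO under vehicle and 178 ± 83.2 CPM in Braf Smarcb1 KO with CKI (n = 3 each) down to 94.5 ± 36.5 CPM in Braf under vehicle and 57.7 ± 27.0 CPM in untreated Arid1a KO (n = 3 each). The other ATPase, Smarca2, had a narrow range of group means and another order. Its highest mean was 91.1 ± 8.70 CPM in Braf Arid1a KO with CKI, and its lowest were 61.4 ± 4.18 CPM in wild type and 56.4 ± 11.7 CPM in Braf Smarcb1 KO under vehicle (n = 3 each). For both ATPases, all neighbours in the order overlapped in their libraries.

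Smarcc1 was highest in Braf Smarcb1 KO with CKI (73.7 ± 25.7 CPM, n = 3), Braf Arid2 KO under vehicle (72.3 ± 19.3 CPM, n = 2) and Braf Smarcb1 KO under vehicle (65.6 ± 23.8 CPM, n = 3). It was lowest in Braf under vehicle (18.4 ± 8.66 CPM), wild type (16.5 ± 4.19 CPM) and untreated Arid1a KO (11.8 ± 2.86 CPM, n = 3 each). The 1 gap in this order lay between Braf Arid1a KO under vehicle, at 29.6 CPM or more, and Braf Arid2 KO with CKI, at 25.7 CPM or less. The paralog Smarcc2 had its highest mean in Braf Arid1a KO with CKI (112.7 ± 10.9 CPM) and its lowest in untreated Arid1a KO (46.6 ± 13.8 CPM, n = 3 each), with overlap between all neighbours.

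Smarcd3 stood at 9.47, 9.2 and 9.84 CPM in the 3 libraries of Braf Smarcb1 KO with CKI. These 3 libraries were above all others, the next being a Braf Smarcb1 KO vehicle library at 5.61 CPM. In untreated Arid1a KO, wild type and Braf under vehicle Smarcd3 had a mean of 0.260 ± 0.0499, 0.268 ± 0.201 and 0.349 ± 0.0813 CPM (n = 3 each), which rest on 3 to 14 counts per library. Smarcd1 ranged from 8.03 ± 3.94 CPM in Braf Smarcb1 KO with CKI to 1.88 ± 0.741 CPM in Braf Arid1a KO under vehicle, and Smarcd2 from 14.2 ± 3.98 CPM in Braf with CKI (n = 3 each) to 5.06 ± 1.09 CPM in Braf Arid2 KO with CKI (n = 2). Smarce1 was highest in Braf Smarcb1 KO and Braf under vehicle (76.1 ± 18.5 and 67.98 ± 10.9 CPM) and lowest in Braf with CKI and Braf Arid1a KO with CKI (41.7 ± 10 and 40.1 ± 6.84 CPM, n = 3 each).

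Loss of Smarcb1 was compared with Braf alone, first under vehicle. Of the 9 members 3 were higher and 1 lower by edgeR's quasi-likelihood test with Benjamini-Hochberg adjustment over all genes, where 28.6% of all genes tested were called, 14.4% higher and 14.2% lower. The 1 lower was Smarcb1, the gene knocked out, so its call came with the design. The median log2 fold change of the members was 0.43, against 0.03 for all genes. Smarcb1 stood at 2.28, 10.03 and 17.9 CPM in the Smarcb1 KO libraries, against 100.7, 56.97 and 131 CPM in the Braf libraries. The groups did not overlap, and the knockout libraries still held 77 to 488 counts of the gene (log2 fold change -3.26, SE 0.62, adjusted p = 0.000592).

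Smarcd3 had 0.890, 3.92 and 5.61 CPM in Smarcb1 KO, against 0.255, 0.398 and 0.393 CPM in Braf libraries. All 3 knockout libraries were higher, on 5 to 11 counts in the Braf libraries, and Smarcd3 rose by a log2 fold change of 3.29 (SE 0.71, adjusted p = 0.00169). The scaffold subunit Smarcc1 had 45.4, 91.9 and 59.6 CPM in Smarcb1 KO, against 11.5, 15.7 and 28.1 CPM in Braf libraries. Again the groups did not overlap (log2 fold change 1.83, SE 0.43, adjusted p = 0.00342). The ATPase Smarca4 had 262.1, 208.4 and 106.8 CPM in Smarcb1 KO, against 55.4, 100.2 and 128 CPM in Braf libraries. Here the lowest knockout library lay below the highest Braf library, and the rise passed narrowly (log2 fold change 1.03, SE 0.39, adjusted p = 0.0496). Without Braf vehicle library 2 or 4, or Smarcb1 KO vehicle library 1 or 2, Smarca4 did not pass, and over all 6 omissions its log2 fold change ran from 0.73 to 1.32, with an adjusted p of 0.0171 to 0.208. Smarca4 was also not called with no filter or in a fit of only these groups.

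The other ATPase did not pass by edgeR: Smarca2 had 49.3, 50.04 and 69.96 CPM in Smarcb1 KO, against 80.99, 90.5 and 71.3 CPM in Braf libraries (log2 fold change -0.52, adjusted p = 0.0685). All 3 knockout libraries lay below the Braf libraries, with the closest pair nearly level. DESeq2 called 5 members in this comparison, the 4 above and Smarca2 (-0.54, adjusted p = 0.0384), and edgeR called Smarca2 without Braf vehicle library 5 or Smarcb1 KO vehicle library 3. Smarcd1 had a log2 fold change of 1.03 (adjusted p = 0.0894), and Smarcd2, Smarce1 and Smarcc2 of 0.43, 0.16 and -0.03. In bulk samples fewer cells of a type and less RNA per cell cannot be told apart. Other cell programmes moved in the same comparison: 20 of 22 cell cycle genes were higher in Smarcb1 KO (summed level 933 to 2291 CPM, against 416 to 509 CPM in Braf), and 3 of 7 leukocyte markers were lower (138 to 436 CPM, against 881 to 1473 CPM). Of 10 thyrocyte markers 7 were lower and 1 higher (164 to 256 CPM in Smarcb1 KO, against 660 to 1367 CPM in Braf). Lower too were 7 of 10 endothelium markers (87.4 to 142 CPM, against 40.1 to 741 CPM), 6 of 10 fibroblast markers (1639 to 2860 CPM, against 1141 to 24390 CPM) and 6 of 9 macrophage markers (519 to 1950 CPM, against 3256 to 4451 CPM). Of 6 neuron markers 4 were higher (175 to 264 CPM, against 23.2 to 59.5 CPM). Beyond the covariates below, the part of these cell types in the member changes was not tested. With the cell cycle level as a covariate, chosen after seeing the data, Smarcc1 and Smarcd3 were the 2 members called, while Smarca4 had a log2 fold change of 0.16 (adjusted p = 0.908) and Smarcb1 of -1.87 (adjusted p = 0.167). With leukocyte level as the covariate, also chosen after seeing the data, Smarcb1 and Smarcd3 were the 2 called, Smarcc1 had 1.09 (adjusted p = 0.165) and Smarca4 had 0.72 (adjusted p = 0.451). Neither level overlapped between these groups: as mean log2(CPM + 1), cell cycle was 4.98 to 6.29 in Smarcb1 KO and 2.93 to 3.97 in Braf. These fits separate level from genotype only through the spread within groups, and even the knocked-out Smarcb1 lost its call with the cell cycle covariate. A lost call here does not tell the level from the genotype.

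With CKI, Smarcb1 KO was again compared with Braf, and 1 member was higher and 1 lower, where 17.1% of all genes were called, 7.87% higher and 9.19% lower. The 1 lower was again Smarcb1, the gene knocked out. Smarcb1 had 18.05, 47.4 and 11.9 CPM in Smarcb1 KO libraries, against 216.5, 187.1 and 194.1 CPM in Braf libraries, with no overlap (log2 fold change -2.95, SE 0.61, adjusted p = 0.00188). Smarcd3 had 9.47, 9.2 and 9.84 CPM in Smarcb1 KO, against 3.28, 3.37 and 0.792 CPM in Braf, and all knockout libraries were higher (log2 fold change 1.94, SE 0.64, adjusted p = 0.0410). Smarcd3 did not pass without any 1 of the 6 libraries, at an adjusted p of 0.0630 to 0.163 and log2 fold changes of 1.51 to 2.22. Smarcc1 and Smarca4, called under vehicle, had log2 fold changes of 0.63 (adjusted p = 0.346) and 0.65 (adjusted p = 0.275) here. Cell cycle genes, with 1 of 22 higher, had a summed level of 394 to 659 CPM in Smarcb1 KO and 355 to 517 CPM in Braf with CKI. Of 10 thyrocyte markers 9 were lower (1693 to 2718 CPM in Smarcb1 KO, against 10520 to 23630 CPM in Braf), and of 10 endothelium markers 9 were lower (88.5 to 102 CPM, against 203 to 792 CPM). Of 6 neuron markers 5 were higher (142 to 194 CPM, against 8.28 to 16.5 CPM). Their part in the change of Smarcd3 was not tested.

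**Figure D2:**
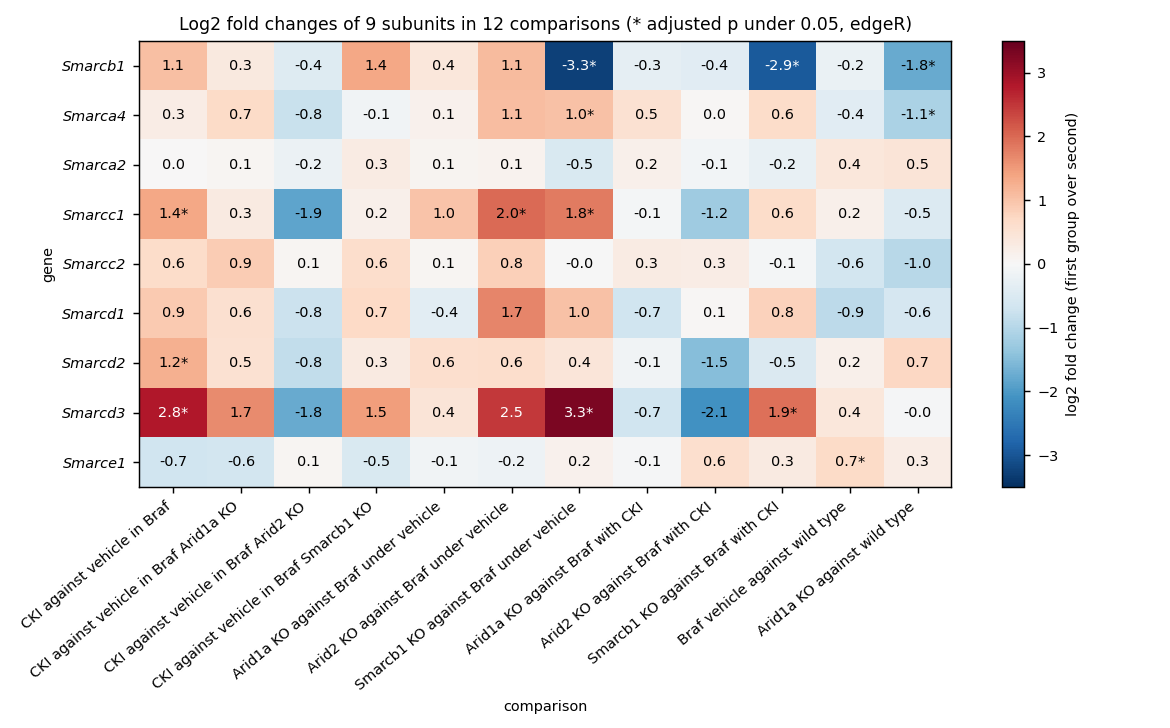
Log2 fold changes of the 9 subunits (rows) in 12 comparisons of 2 groups (columns), the first group over the second, with an asterisk for an adjusted p under 0.05. The deepest cells are the fall of Smarcb1 in Smarcb1 KO (-3.26 under vehicle, -2.95 with CKI) and the rise of Smarcd3 in Smarcb1 KO under vehicle (3.29).

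The ratio between paralogs was taken within each library and compared between Smarcb1 KO and Braf. Labels were permuted within treatment (two-sided exact permutation test over 400 relabelings, adjusted over 4 pairs, smallest possible p 0.00500). Ratios are of CPM and not per length, so they are read between groups and not as a ranking of the paralogs. All 4 differed with no pseudocount, and 1 of 4 with a pseudocount of 1 CPM. The log2 ratio of Smarca4 to Smarca2 was 2.41, 2.06 and 0.61 in Smarcb1 KO vehicle libraries and 1.19, 0.61 and 2.06 in Smarcb1 KO CKI libraries, against -0.55, 0.15 and 0.84 in Braf vehicle and 0.14, 0.45 and 0.91 in Braf CKI libraries. The ratio was higher by 1.17 on the log2 scale over both treatments (adjusted p = 0.0450, exact permutation test). Smarcc1 to Smarcc2 was -0.60, 0.33 and 0.97 in Smarcb1 KO vehicle and -0.47, 0.07 and -0.29 in Smarcb1 KO CKI libraries, against -1.72, -2.08 and -1.34 in Braf vehicle and -0.49, -0.36 and -2.08 in Braf CKI libraries. The difference was 1.35 (adjusted p = 0.0400, exact permutation test). Braf CKI library 5 stood with the Braf vehicle libraries, while the other Braf CKI libraries overlapped the Smarcb1 KO range.

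Among the accessory subunits, the ratio of Smarcd1 to Smarcd2 was higher and that to Smarcd3 lower. The log2 ratio of Smarcd1 to Smarcd2 averaged -0.72 ± 1.01 and -0.41 ± 0.44 in Smarcb1 KO under vehicle and with CKI, against -1.35 ± 0.41 and -1.62 ± 0.66 in Braf (SD, n = 3 each), a difference of 0.92 (adjusted p = 0.0450, exact permutation test). That of Smarcd1 to Smarcd3 averaged 0.80 ± 2.00 and -0.35 ± 0.62 in Smarcb1 KO under vehicle and with CKI, against 2.77 ± 0.23 and 1.13 ± 1.36 in Braf (SD, n = 3 each), a difference of -1.73 (adjusted p = 0.0450, exact permutation test). With a pseudocount of 1 CPM the adjusted p of the exact permutation test was 0.05 for Smarca4/Smarca2, 0.0733 for Smarcd1/Smarcd2 and 0.105 for Smarcd1/Smarcd3, none of them under 0.05, and 0.04 for Smarcc1/Smarcc2. Within vehicle or CKI alone no p under 0.1 was possible, and the differences kept their sign. Leaving out 1 library left the signs as they were but took the adjusted p to 0.05 or above in 10 of 12 omissions for Smarca4/Smarca2, Smarcd1/Smarcd2 and Smarcd1/Smarcd3 and in 7 of 12 for Smarcc1/Smarcc2.

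**Figure D3:**
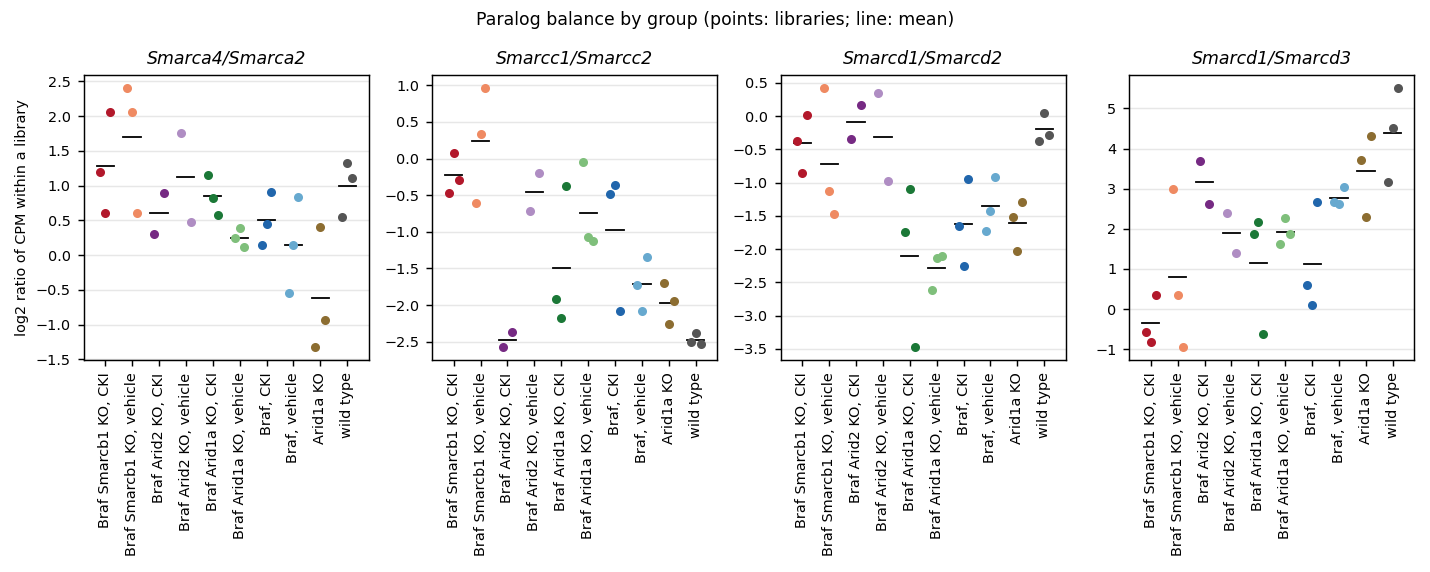
Log2 ratio of paralog levels within a library (y axis) by group (x axis), with points for libraries and a line for the mean. Smarca4/Smarca2 averages 1.69 in Braf Smarcb1 KO under vehicle and 0.15 in Braf under vehicle, and Smarcc1/Smarcc2 is lowest, at -2.47, in Braf Arid2 KO with CKI and in wild type.

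The response to CKI was compared with vehicle in each genotype. In Braf alone 3 of 9 members were higher with CKI and 0 lower, where 13.0% of all genes were called, 7.96% higher. The median log2 fold change of the members was 0.90, against -0.01 for all genes. Smarcd3 had 3.28, 3.37 and 0.792 CPM with CKI, against 0.255, 0.398 and 0.393 CPM with vehicle. CKI library 5 was far below the other CKI libraries and still above every vehicle library (log2 fold change 2.80, SE 0.70, adjusted p = 0.0145). Smarcc1 had 63.2, 50.9 and 28.6 CPM with CKI, against 11.5, 15.7 and 28.1 CPM with vehicle, so that the lowest CKI library lay only just above the highest vehicle library (log2 fold change 1.37, SE 0.43, adjusted p = 0.0391). Smarcd2 had 15.7, 17.2 and 9.71 CPM with CKI, against 5.40, 6.48 and 6.06 CPM with vehicle, again without overlap (log2 fold change 1.25, SE 0.38, adjusted p = 0.0321).

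Smarce1 had lower values, 31.4, 51.3 and 42.3 CPM with CKI against 78.7, 68.3 and 56.97 CPM with vehicle, with no overlap, and it narrowly did not pass by edgeR (log2 fold change -0.71, SE 0.24, adjusted p = 0.0522). DESeq2 called it (-0.78, adjusted p = 0.0109), as did edgeR with RLE size factors and with the cell cycle covariate, so that 4 members were called under each of these settings. Smarcb1 had a log2 fold change of 1.05 (adjusted p = 0.228) and Smarca2 of 0.00 (SE 0.21). Without single libraries 0 to 3 members were called: Smarcd3 was lost without vehicle library 2 or CKI library 1 or 4 (adjusted p up to 0.0599), Smarcc1 also without vehicle library 4 (up to 0.160), and Smarcd2 without any vehicle library or CKI library 1 or 4 (up to 0.111). In the same comparison 7 of 7 leukocyte markers were lower (164 to 318 CPM with CKI, against 881 to 1473 CPM) and 10 of 10 thyrocyte markers higher (10520 to 23630 CPM, against 660 to 1367 CPM). After adding leukocyte level to the model, 0 members were called and the log2 fold changes of Smarcd3, Smarcd2 and Smarcc1 were 2.17, 0.73 and 0.43, where the median of all genes was 0.14. That fit called 95 genes in all. The level did not overlap between CKI and vehicle libraries, so the fit separates it from the drug only through its spread within groups. The GC slope of the libraries, defined with the Arid1a KO comparison, was 0.28 to 0.30 with CKI and -0.14 to 0.11 with vehicle, and with an offset for it, chosen after seeing the data, Smarcd2 did not pass (0.95, adjusted p = 0.125) while Smarce1 did (-0.82, adjusted p = 0.0364).

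In the 3 knockout genotypes 0 members passed by edgeR with CKI against vehicle. In Braf Smarcb1 KO, where 3.85% of all genes were called (732 genes, but 2 in a fit of only these groups), DESeq2 called 0 members and 3 had an unadjusted p under 0.05: Smarcb1 with a log2 fold change of 1.36 (adjusted p = 0.210), Smarcd3 with 1.45 (adjusted p = 0.227) and Smarce1 with -0.54 (adjusted p = 0.230). There 8 of 22 cell cycle genes were lower (394 to 659 CPM with CKI, against 933 to 2291 CPM with vehicle) and 7 of 10 thyrocyte markers higher (1693 to 2718 CPM with CKI, against 164 to 256 CPM with vehicle). With the cell cycle covariate Smarce1 had -0.06 (adjusted p = 0.968) and 36 genes were called in all. The cell cycle level did not overlap between CKI and vehicle there, so that fit separates it from the drug only through its spread within groups. In Braf Arid1a KO, where 4.51% were called, DESeq2 called 0 and 3 had an unadjusted p under 0.05: Smarcd3 with 1.67 (adjusted p = 0.156), Smarcc2 with 0.88 (adjusted p = 0.176) and Smarce1 with -0.64 (adjusted p = 0.127). In Braf Arid2 KO, where 3.37% were called, 2 had an unadjusted p under 0.05: Smarcc1 with -1.85 (adjusted p = 0.0552) and Smarcd3 with -1.77 (adjusted p = 0.217). DESeq2 called 1 there, Smarcc1 (log2 fold change -1.86, adjusted p = 0.00914).

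The Arid2 KO values thus had the opposite sign to Braf for the members that rose in Braf, but not for these alone. Smarcb1, Smarca4 and Smarcd1 had -0.45, -0.78 and -0.76 in Braf Arid2 KO, against 1.05, 0.26 and 0.90 in Braf. Smarce1 had 0.06, against -0.71. In Braf Arid2 KO 2 of 9 members had a positive log2 fold change, with a median of -0.76, against -0.03 for all genes. The difference between the responses was tested. For Arid2 KO minus Braf, 3 of 9 members had a lower response, where 8.66% of all genes were called, 7.19% lower. The 1647 genes behind that share were 0 to 2050 when 1 library was left out. Smarcc1 had 14.3 and 25.7 CPM with CKI, against 85.95 and 58.7 CPM with vehicle in Braf Arid2 KO. Both CKI libraries lay below both vehicle libraries, the reverse of Braf alone, and the difference of log2 responses was -3.22 (SE 0.68, adjusted p = 0.0141). Smarcd3 had 0.354 and 0.787 CPM with CKI, against 2.11 and 1.81 CPM with vehicle, again without overlap (difference -4.57, SE 1.08, adjusted p = 0.0166). Smarcd2 had 5.83 and 4.29 CPM with CKI, against 8.75 and 9.48 CPM with vehicle (difference -2.10, SE 0.59, adjusted p = 0.0312). A lack of overlap between 2 and 2 libraries says little by itself. Smarcb1 and Smarca4 did not overlap between CKI and vehicle in Braf Arid2 KO either, and were not called (edgeR adjusted p = 0.763 and 0.35).

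Without Braf Arid2 KO vehicle library 2 or either Braf Arid2 KO CKI library, Smarcc1 and Smarcd3 did not pass (adjusted p up to 0.155 and 0.159). Smarcd2 did not pass without these 3 libraries either, nor without Braf Arid2 KO vehicle library 4 or Braf CKI library 1 or 4 (up to 0.156), nor with an offset for GC content (-1.77, adjusted p = 0.0868), with no filter or with the replicate number as a block. Thyrocyte markers did not share this pattern: 7 of 10 were higher with CKI in Braf Arid2 KO (41460 to 66800 CPM, against 967 to 1250 CPM with vehicle), and 0 of 10 differed in response from Braf by edgeR, 3 of them at an unadjusted p under 0.05, and 1 by DESeq2. For Smarcb1 KO minus Braf 0 members differed, where 0.305% of all genes were called, and for Arid1a KO minus Braf 0 differed, where 0% were called by edgeR, 2018 genes had an unadjusted p under 0.05 and DESeq2 called 172 genes. In both, 0 members had an unadjusted p under 0.05 and DESeq2 called 0. The largest of these differences were -1.35 for Smarcd3 (SE 0.91) in Smarcb1 KO and -1.14 for Smarcd3 (SE 0.94) in Arid1a KO.

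**Figure D4:**
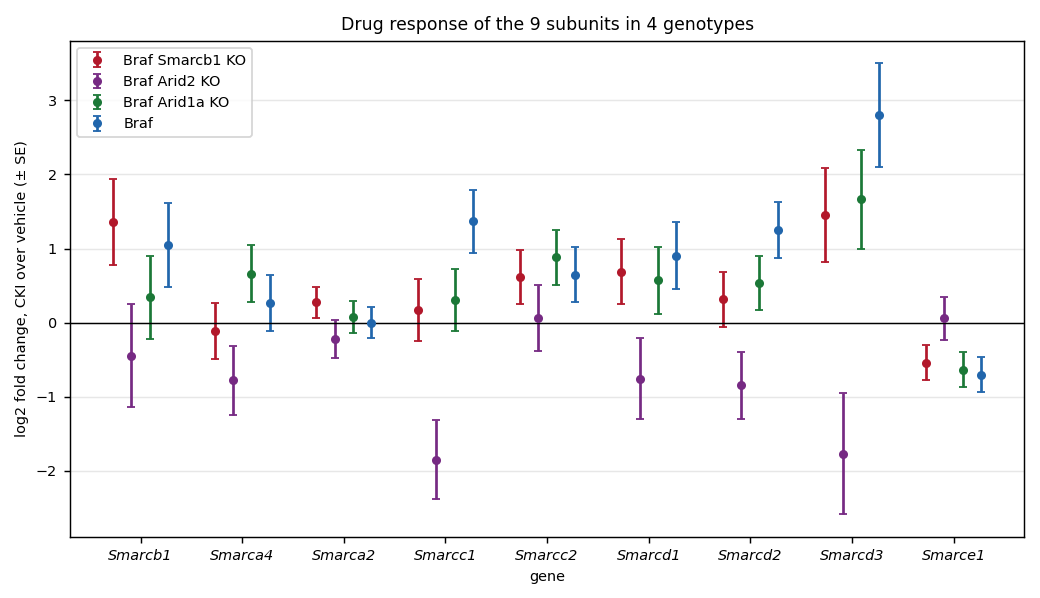
Log2 fold change of CKI over vehicle for each subunit (x axis) in 4 genotypes (colours), with bars for the standard error. In Braf alone Smarcc1, Smarcd2 and Smarcd3 stand at 1.37, 1.25 and 2.80, and in Braf Arid2 KO at -1.85, -0.85 and -1.77.

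Loss of Arid2 or Arid1a was compared with Braf alone. Under vehicle, Arid2 KO had 1 member higher, where 3.61% of all genes were called, 2.33% higher. This was Smarcc1, with 85.95 and 58.7 CPM in Arid2 KO against 11.5, 15.7 and 28.1 CPM in Braf libraries (log2 fold change 1.97, SE 0.47, adjusted p = 0.0268). Smarcd1 and Smarcd3 had log2 fold changes of 1.71 (adjusted p = 0.0533) and 2.47 (adjusted p = 0.0602), and DESeq2 called all 3. Smarcc1 did not pass without either Arid2 KO library or without Braf vehicle library 2 or 4 (adjusted p up to 0.220), or with the leukocyte level as a covariate (log2 fold change 1.57, adjusted p = 0.107). With CKI, Arid2 KO had 0 members called, where 1.27% of all genes were called. There 4 had an unadjusted p under 0.05, among them Smarcd2 with a log2 fold change of -1.49 (adjusted p = 0.0785), and DESeq2 called 2, Smarcd2 and Smarcd3. These comparisons share their Braf and Arid2 KO libraries with the drug responses above.

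For Arid1a KO 0 members were called by edgeR under vehicle, where 9.56% of all genes were, and 0 with CKI, where 2.30% were. DESeq2 called 0 in both. Under vehicle 1 member had an unadjusted p under 0.05, Smarcc1, with 46.3, 33.96 and 29.6 CPM in Arid1a KO against 11.5, 15.7 and 28.1 CPM in Braf libraries (log2 fold change 0.99, SE 0.43, adjusted p = 0.148). With CKI 0 had one, and the log2 fold changes ran from -0.71 for Smarcd1 to 0.53 for Smarca4.

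Braf under vehicle was compared with untreated wild type, so dosing went with the mutation, and preparation cannot be told apart from genotype here either. Smarce1 was the 1 member called, higher, where 20.0% of all genes were called, 9.84% higher. It had 78.7, 68.3 and 56.97 CPM in Braf libraries, against 48.6, 40.8 and 38.3 CPM in wild type, without overlap (log2 fold change 0.68, SE 0.24, adjusted p = 0.0476). It did not pass without Braf vehicle library 2 or 4 or wild-type library 2 or 3 (adjusted p up to 0.181). Smarcd1 had 1.63, 2.42 and 3.22 CPM in Braf libraries, against 4.36, 4.998 and 4.42 CPM in wild type, and did not pass (log2 fold change -0.92, adjusted p = 0.159). Cell-type markers moved in the same comparison: 9 of 10 thyrocyte markers were lower (660 to 1367 CPM in Braf, against 64600 to 163400 CPM in wild type), as were 10 of 10 endothelium markers (40.1 to 741 CPM, against 2191 to 3311 CPM) and 4 of 4 parathyroid markers (32.8 to 60.2 CPM, against 4214 to 14840 CPM). Of 10 fibroblast markers 8 were higher (1141 to 24390 CPM, against 822 to 1549 CPM). The part of these cell types in the change of Smarce1 was not tested. Cell cycle genes, 3 of 22 higher, summed to 416 to 509 CPM in Braf and 242 to 313 CPM in wild type, and leukocyte markers, 2 of 7 higher, to 881 to 1473 CPM in Braf and 471 to 886 CPM in wild type. With their levels as covariates Smarce1 did not pass (0.45, adjusted p = 0.212, with cell cycle and 0.69, adjusted p = 0.0942, with leukocyte level). The remaining 7 members had log2 fold changes from -0.63 for Smarcc2 to 0.40 for Smarca2.

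Untreated Arid1a KO was compared with wild type, and 2 members were lower, where 18.6% of all genes were called, 11.8% lower. Smarcb1 had 22.3, 62.5 and 15.1 CPM in Arid1a KO libraries, against 74.8, 152 and 111 CPM in wild-type libraries (log2 fold change -1.76, SE 0.58, adjusted p = 0.0373). Smarca4 had 39.3, 88.7 and 45.1 CPM in Arid1a KO libraries, against 96.5, 152 and 124 CPM in wild-type libraries (log2 fold change -1.11, SE 0.39, adjusted p = 0.0487). For both genes Arid1a KO library 2 lay nearest to wild type, and the groups did not overlap. Smarcb1 did not pass without Arid1a KO library 1 or 3 or wild-type library 2 or 3 (adjusted p up to 0.190), and Smarca4 without Arid1a KO library 1 or 3 or any wild-type library (up to 0.218). DESeq2 called 3 members, these 2 and Smarca2 (0.54, adjusted p = 0.0469). Smarcc2 had a log2 fold change of -0.96 (adjusted p = 0.0739), while Smarca2 had 0.45 (adjusted p = 0.142) and Smarcd2 0.72 (adjusted p = 0.182).

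Arid1a KO libraries 1 and 3 were also the 2 libraries with the steepest loss of counts with GC content. The slope of a gene's level, relative to its mean over libraries, on GC content was -0.93 and -0.77 log2 units per 10 points of GC in these 2, -0.18 in Arid1a KO library 2 and -0.39 to 0.36 in all others. Transcripts of Smarcb1 and Smarca4 hold 55.2% and 55.9% GC, and Smarcc1, with the lowest share of the 9, holds 48.4%. Smarcd3, Smarcd1 and Smarcd2 hold more, 59.1%, 57.2% and 56.9%. Their log2 fold changes here were -0.03, -0.60 and 0.72, and none of them was called. With an offset for GC content, chosen after seeing the data, Smarca4 had a log2 fold change of -0.49 (adjusted p = 0.273) and Smarcb1 of -1.28 (adjusted p = 0.126), and the 1 member called was Smarcd2 (1.71, adjusted p = 0.00818), where the median of all genes was 0.15. With Arid1a KO library 2 alone, 0 members were called, and Smarcb1 had -0.85 (adjusted p = 0.872) and Smarca4 -0.48 (adjusted p = 0.909), where the lone library is assumed to vary like the other groups. Leukocyte markers differed too, with 6 of 7 higher in Arid1a KO (summed level 2482 to 4431 CPM in Arid1a KO and 471 to 886 CPM in wild-type libraries). With their level as a covariate 0 members were called, and 20 genes in all. Smarcb1 then had -2.075 (adjusted p = 0.324) and Smarca4 -0.77 (adjusted p = 0.597). The groups did not overlap in that level, so this fit separates it from the genotype only through its spread within groups. Fibroblast markers, 7 of 10 higher, summed to 10300 to 14340 CPM in Arid1a KO and 822 to 1549 CPM in wild type, and macrophage markers, 7 of 9 higher, to 7065 to 17760 CPM in Arid1a KO and 725 to 2570 CPM in wild type. Of 4 parathyroid markers 4 were lower (136 to 629 CPM, against 4214 to 14840 CPM). The part of these cell types was not tested. Cell cycle genes, 6 of 22 higher, summed to 261 to 601 CPM in Arid1a KO and 242 to 313 CPM in wild type, and with their level as a covariate Smarca4 and Smarcc2 were called and Smarcb1 was not (-1.16, adjusted p = 0.204).

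**Figure D5:**
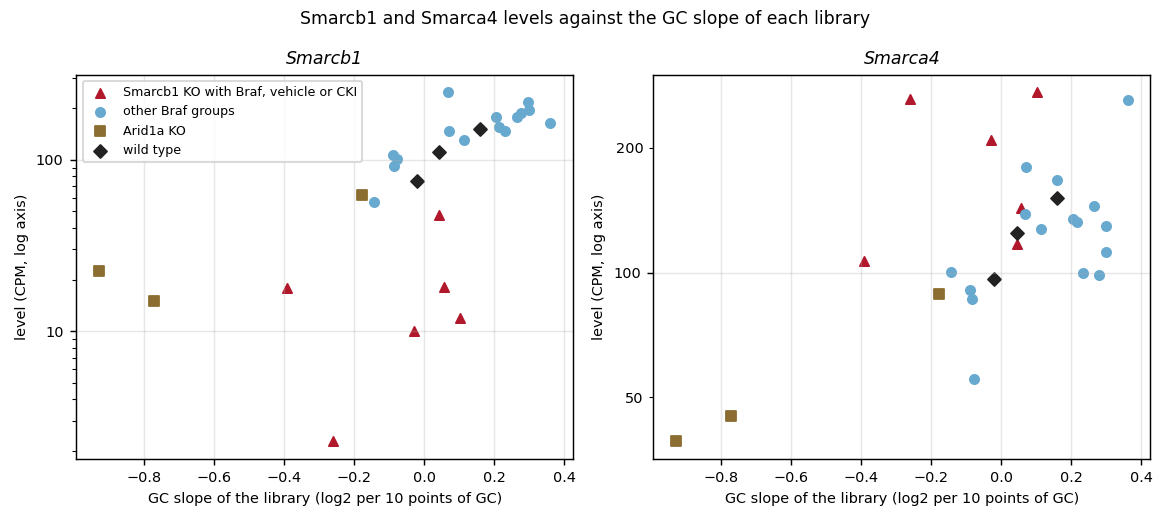
Level of Smarcb1 and Smarca4 in CPM (log axis) against the GC slope of each library in log2 units per 10 points of GC, with markers for 4 sets of groups. Arid1a KO libraries 1 and 3 lie alone at slopes of -0.93 and -0.77, with Smarca4 at 39.3 and 45.1 CPM, the lowest of all libraries, while the low Smarcb1 levels of Smarcb1 KO libraries stand at slopes from -0.39 to 0.10.

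Across the 28 libraries the members did not move as 1 block, and the correlations given here share library, depth and base composition and are descriptions of log2(CPM + 1). Smarcc1 and Smarcd3 had the highest Pearson r of any pair, 0.81, and 0.64 within groups. Smarca4 and Smarcc2 had 0.70 over all libraries and 0.89 within groups. Smarca4 and Smarca2 had -0.40, and Smarcb1 and Smarca4 had -0.07. In the 22 libraries outside Braf Smarcb1 KO, Smarcb1 and Smarca4 had 0.77, and Smarcb1 and Smarcc1 0.70 against -0.11 over all 28. Smarcc2 and Smarcb1 had an r of 0.73 and 0.63 with the GC slope of the library, and 0.71 and 0.65 without Arid1a KO libraries 1 and 3. Smarca4 had 0.61, and 0.23 without these libraries. Smarcd3, Smarcd1 and Smarcd2, the members of highest GC content, had 0.23, 0.23 and 0.14, and 0.05, 0.36 and 0.41 without them.

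Among 10459 genes with a mean of at least 5 CPM, those most like Smarcc1 were Mta2 (r 0.965), Ints8 (0.964) and Ash2l (0.960), of which 2 remained among the 3 most like it in the 22 libraries without Smarcb1 KO. Those most like Smarcb1 were Scin (0.969), Arhgef16 (0.965) and Pkp3 (0.964), of which 0 remained. Smarcd3 came with Pink1 (0.930), Plod2 (0.928) and Yipf4 (0.923), of which 0 remained, and Smarca4 with Nup133 (0.913) and Ipo4 (0.895), of which Nup133 remained. Smarcc2 came with Numa1 (0.940), Pcnxl3 (0.914) and Golga2 (0.911), and Smarce1 with Prmt1 (0.902), Emg1 (0.887) and Psma4 (0.885). The likenesses were looser for Smarcd2 with Ccni (0.833), Ppm1b (0.825) and Rest (0.821), for Smarcd1 with Dmpk (0.801), Pde4a (0.779) and Slc23a2 (0.771), and for Smarca2 with Pcmtd1 (0.801), Cd36 (0.775) and Cln3 (0.722).

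The remaining subunits of the complex were read from a list of 20 genes, of which 19 were in the table and tested. In Smarcb1 KO against Braf under vehicle 2 of 19 were higher and 1 lower, where 28.6% of all genes were called (median log2 fold change -0.05, against 0.03 for all genes). Bcl7c, a BCL7 subunit, had 29.2 ± 14.2 CPM in Smarcb1 KO and 6.63 ± 2.55 CPM in Braf (SD, n = 3 each; log2 fold change 2.14, adjusted p = 0.00110). Pbrm1, the polybromo subunit of PBAF, had 113 ± 16.8 CPM in Smarcb1 KO and 60.5 ± 10.3 CPM in Braf (n = 3 each; log2 fold change 0.91, adjusted p = 0.0121). Dpf2, a PHD finger subunit of cBAF, had 50.2 ± 19.6 CPM in Smarcb1 KO and 94.3 ± 9.88 CPM in Braf (n = 3 each; log2 fold change -0.91, adjusted p = 0.00898). With CKI 0 of 19 were called by edgeR, where 17.1% of all genes were, 4 had an unadjusted p under 0.05, and DESeq2 called 2.

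In Braf under vehicle against wild type 4 of 19 were lower and 0 higher (median -0.49, against -0.03 for all genes). Of all genes 20.0% were called in either direction, 9.84% higher and the rest lower. Arid1b, the paralog of Arid1a, had 10.95 ± 6.57 CPM in Braf and 45.8 ± 7.44 CPM in wild type (n = 3 each; log2 fold change -2.06, adjusted p = 0.00136). Arid2 and Bcl7a also fell, by 1.05 and 1.05 on the log2 scale. Actl6b, the actin-like subunit of neuronal complexes, had 1 count over the Braf libraries and 208 over the wild-type libraries, a ratio of 174 in favour of wild type (95% counting interval 30.8 to 6890). Markers of C cells, the calcitonin-producing cells of the thyroid, summed to 15.2 to 85.3 CPM in Braf and 7664 to 30390 CPM in wild type, and parathyroid markers to 32.8 to 60.2 CPM in Braf and 4214 to 14840 CPM in wild type. Neuron markers summed to 23.2 to 59.5 CPM in Braf and 57.3 to 132 CPM in wild type, with 3 of 6 lower, and the part of these cells in the Actl6b count was not tested. In Arid1a KO against wild type 4 of 19 were lower and 0 higher, where 18.6% of all genes were called, 11.8% lower (median -0.46, against -0.01 for all genes): Ss18, the subunit fused in synovial sarcoma (log2 fold change -1.09, adjusted p = 0.00739), Bcl7b (-0.81, adjusted p = 0.0337), Actb (-1.14, adjusted p = 0.0341) and Actl6b (-3.21, adjusted p = 0.0445).

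With CKI against vehicle 0 of 19 were called in Braf by edgeR, 4 of them at an unadjusted p under 0.05, and DESeq2 called 0. The share of all genes called was 13.0% in Braf, 4.51% in Braf Arid1a KO, 3.85% in Braf Smarcb1 KO and 3.37% in Braf Arid2 KO. Arid1b was the 1 called in Braf Arid1a KO, with 39.4 ± 5.94 CPM with CKI and 11.4 ± 2.34 CPM with vehicle (n = 3 each; log2 fold change 1.79, adjusted p = 0.0180). Actl6a was the 1 called in Braf Smarcb1 KO, with 45.8 ± 4.33 CPM with CKI and 88.2 ± 29.5 CPM with vehicle (n = 3 each; log2 fold change -0.95, adjusted p = 0.0392). The cell cycle genes given above for that comparison had an unadjusted p under 0.05 in 21 of 22, and their part in the change of Actl6a was not tested. In Braf Arid2 KO the 1 called was Dpf1, with 0 counts with CKI and 20 with vehicle, at least 6.665-fold lower against a floor of 3 counts over the CKI group, and against 49 counts in Braf with CKI it was at least 10.4-fold lower. Responses to CKI differed between Arid2 KO and Braf in 3 of 19: Pbrm1 (difference of log2 responses -1.61, adjusted p = 0.0209), Bcl7c (-2.63, adjusted p = 0.0215) and Dpf1. Of all genes 8.66% were called for that difference, 7.19% lower.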

How the data were processed

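Whole-number read counts per gene, with no normalization, were deposited by the authors in a single table. The submitters' processing notes name the build mm9 and the tools STAR 2.4, HTSeq 0.6.1 and DESeq2 without a role for any. Libraries came from a TruSeq RNA kit, per the labels, and strand is not given in the sources used here, so overlapping and antisense genes may be counted together. Of 30 labelled samples 28 were analysed, and Braf Arid2 KO vehicle 1 and CKI 2 were not analysed here. No 2 libraries of a group were as alike as sampling noise allows (26 pairs, chi-square over its degrees of freedom 84.5 to 393).

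All 28 libraries entered 1 fit in edgeR 4.0.16 (R 4.3.3) with filterByExpr, TMM, a term per group, glmQLFit and glmQLFTest, for 15 comparisons with Benjamini-Hochberg adjustment over 19016 genes and a threshold of 0.05. Alternatives were RLE size factors, no filter, the replicate number as a block, fits of only the groups compared, DESeq2 1.42.0 and leaving out each library. A GC offset, leukocyte and cell cycle covariates and Arid1a KO library 2 alone were added after seeing the data. Where the level of a covariate did not overlap between the groups compared, the fit could separate it from the group only through its spread within groups. GC content and transcript lengths came from GENCODE M21 (88.7% of genes matched) and promoters from RefSeq. The fit was tested on simulated data. The members and lists were chosen with earlier results of these data known. Named genes were the members, Arid1a and Arid2, up to 4 called genes of the other subunits per comparison, and the 3 genes most like each member, of which 1 is not reported here.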

Additional observations from a re-analysis of the deposited data

Results flagged for a closer look

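The response of 3 members to CKI differed between Braf Arid2 KO and Braf by the test of the difference itself (edgeR, adjusted over all genes). For Smarcc1 the difference of log2 responses, Arid2 KO minus Braf, was -3.22, with both Arid2 KO CKI libraries below both vehicle libraries and all 3 Braf CKI libraries above all Braf vehicle libraries. For Smarcd2 it was -2.10. For Smarcd3 it was -4.57, on 9 and 22 counts in the 2 Braf Arid2 KO CKI libraries. The summed level of leukocyte markers was 163 to 173 CPM with CKI and 542 to 568 CPM with vehicle in Braf Arid2 KO, and 164 to 318 CPM with CKI and 881 to 1473 CPM with vehicle in Braf. Of these 7 markers 0 differed in response by edgeR, 0 at an unadjusted p under 0.05 and 0 by DESeq2. With their level as a covariate all 3 differences were called, at -3.02, -1.97 and -4.42 for Smarcc1, Smarcd2 and Smarcd3. The level did not overlap between CKI and vehicle in either genotype. That fit therefore separates it from the drug only through its spread within groups, and a kept call does not tell them apart.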

How the results depend on the processing

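The 38 member values with an unadjusted p under 0.05 were followed (4 of them with Arid1a KO library 2 alone), and 0 of these reversed their sign. A kept sign says little here, since the values were picked by that p from the same libraries. Of the 38, RLE size factors ended 1 call and added 1, no filter 6 and 1, the replicate block 4 and 0, fits of only the groups compared 7 and 1, DESeq2 0 and 8, the GC offset 4 and 2, the leukocyte covariate 9 and 1, and the cell cycle covariate 4 and 5. The number of members called in Arid1a KO against wild type (2 as reported) was 1 with RLE, 1 with no filter, 0 with only the groups compared, 1 with the GC offset, 0 with the leukocyte covariate, 0 with Arid1a KO library 2 alone, 3 with DESeq2 and 2 with the cell cycle covariate, where Smarcb1 was lost and Smarcc2 added. In Braf against wild type (1) it was 0 with no filter, with the block, with only the groups compared and with either covariate. With CKI against vehicle in Braf (3) it was 1 with only the groups compared, 0 with the leukocyte covariate, 2 with no filter and with the block, and 4 with RLE, DESeq2 and the cell cycle covariate, and in Braf Arid2 KO (0) it was 1 with no filter, only the groups compared, DESeq2, the GC offset and either covariate. In Arid2 KO against Braf under vehicle (1) it was 0 with only the groups compared and with the leukocyte covariate, 2 with the cell cycle covariate and 3 with DESeq2, and with CKI (0) it was 2 with DESeq2 and 1 with the cell cycle covariate. In Smarcb1 KO against Braf under vehicle (4) it was 2 with either covariate and 5 with DESeq2. It was 3 there with no filter and with only the groups compared, both without Smarca4. In Smarcb1 KO against Braf with CKI (2) it was 1 with no filter and with the block. The Arid2 KO difference (3) had 2 with no filter, the block and the GC offset, without Smarcd2.

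Leaving out 1 library gave 3 to 6 members in Smarcb1 KO against Braf under vehicle, 1 to 1 with CKI, 0 to 3 for CKI in Braf and for the Arid2 KO difference, 0 to 1 for Arid2 KO under vehicle and for Braf against wild type, 0 to 4 for Arid1a KO against wild type and 0 to 0 in the others. The paralog ratios ran from 0.975 to 1.439 for Smarca4/Smarca2, 1.07 to 1.554 for Smarcc1/Smarcc2, 0.63 to 1.106 for Smarcd1/Smarcd2 and -2.273 to -1.294 for Smarcd1/Smarcd3. With a pseudocount of 1 CPM, Smarca4/Smarca2, Smarcd1/Smarcd2 and Smarcd1/Smarcd3 were 1.156, 0.754 and -0.928 (adjusted p 0.05, 0.0733 and 0.105). Under vehicle alone the 4 differences were 1.547, 1.945, 0.627 and -1.978, and with CKI alone 0.789, 0.746, 1.21 and -1.476, where the smallest p was 0.1.

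Replicate numbers did not pair the libraries: 19 correlations of same-numbered deviations ran from -0.38 to 0.15, 0.04 to 0.15 where there were 3 pairs. Counts over all genes moved. Arid1a KO against wild type had 3538 genes, 2333 with only the groups compared, 106 with library 2 alone and 20 with the leukocyte covariate. CKI in Braf had 2466, against 95 with the leukocyte covariate, 1367 with only the groups compared and 3917 with DESeq2. Smarcb1 KO under vehicle had 5433, against 1929 and 2291 with the leukocyte and cell cycle covariates and 2335 with only the groups compared. Arid2 KO under vehicle had 686, against 1, 96 and 2120 with only the groups compared, the leukocyte covariate and DESeq2. The Arid2 KO difference had 1647, against 2949 with DESeq2. CKI in Braf Smarcb1 KO had 732, against 2 with only the groups compared, 36 with the cell cycle covariate, 339 with the block and 1621 with DESeq2. CKI in Braf Arid1a KO had 858, against 527 with only the groups compared, 177 with the block, 274 with the leukocyte covariate and 1854 with DESeq2. CKI in Braf Arid2 KO had 640, against 1651, 1174 and 1806 with only the groups compared, the cell cycle covariate and DESeq2. Arid1a KO under vehicle had 1818, against 829, 1095 and 2910 with only the groups compared, the block and DESeq2, and with CKI 438, against 138, 263 and 1125. Arid2 KO with CKI had 241, against 78 with the block, 472 and 1321 with the leukocyte and cell cycle covariates, 1209 with only the groups compared and 1941 with DESeq2. The Smarcb1 KO difference had 58, against 5, 31, 10 and 268 with only the groups compared, the block, the leukocyte covariate and DESeq2. The Arid1a KO difference had 0, against 172 with DESeq2, 14 and 3 with the cell cycle and leukocyte covariates and 1 with no filter. Leaving out 1 library gave 0 to 2050 genes for the Arid2 KO difference, 0 to 275 for the Arid1a KO and 19 to 77 for the Smarcb1 KO difference. It gave 726 to 2453 for CKI in Braf, 233 to 923 in Braf Smarcb1 KO, 65 to 349 in Braf Arid2 KO and 256 to 756 in Braf Arid1a KO. Under vehicle and with CKI it gave 3889 to 5140 and 1996 to 2959 for Smarcb1 KO, 38 to 874 and 14 to 230 for Arid2 KO, and 737 to 1637 and 160 to 566 for Arid1a KO. Against wild type it gave 2359 to 3809 for Braf and 1115 to 4854 for Arid1a KO. The cause of these shifts was not tested. The median log2 fold change of all genes, -0.08 to 0.05 as reported, stood at 0.15 and -0.16 with the GC offset in Arid1a KO against wild type and Arid2 KO under vehicle, and at -0.15 and 0.14 with the leukocyte covariate in Arid1a KO against wild type and CKI in Braf. Counts of 3 to 14 limit Smarcd3 in wild type.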
